A study of Macaca mulatta with 33 samples.

Results

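CYP11B1 and HSD11B1, the genes of the enzymes that complete and regenerate cortisol, were followed through 33 arrays of rhesus macaque corpus luteum. Every probe set whose single gene symbol was CYP11B1 or HSD11B1 was taken, which gave 3 of the 52766 probe sets that are not controls, for 2 of the 14132 genes that have a probe set of their own. CYP11B1 had MmugDNA.1790.1.S1_at and MmugDNA.25500.1.S1_at, and HSD11B1 had MmugDNA.31533.1.S1_at. The whole table has a median of 6.19, and all 3 were among the 28911 probe sets with 4 or more arrays above that mark. MmugDNA.1790.1.S1_at lay above it in 32 arrays, MmugDNA.25500.1.S1_at in 28 and the HSD11B1 probe set in 33.

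The corpus luteum is the progesterone-producing gland that forms in the ovary after ovulation. Total RNA of isolated corpora lutea from adult cycling females was measured on Affymetrix Rhesus Genome arrays. In the treated groups, rising doses of human chorionic gonadotropin (hCG), the hormone by which an early embryo keeps the gland alive, were started on luteal day 9 to imitate early pregnancy. Trilostane, an inhibitor of 3-beta-hydroxysteroid dehydrogenase that blocks progesterone synthesis, was given alongside hCG with or without R5020, a synthetic progestin.

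There were 7 groups. The untreated group was collected on luteal day 10 (8 arrays). On day 10, after 1 day of hCG, there were 4 arrays each of hCG alone, hCG with trilostane, and hCG with trilostane and R5020. On day 15, after 6 days of hCG, there were 5 arrays of hCG alone and 4 each of the trilostane and the trilostane with R5020 groups. All treated groups therefore carried hCG, and no untreated tissue of day 15 was analysed here. The day 15 groups thus differ from the untreated one in luteal day as well as treatment. Groups of like treatment at day 15 and day 10 differ in luteal day and in days of hCG together. A difference between the days, or day effect, covers both, which cannot be told apart. The arrays fell into 3 sets by the number in their names. Untreated arrays were in set 1 (4) and set 2 (4), hCG and trilostane at day 10 and 4 of the day 15 hCG arrays were in set 1, and the other groups were in sets 2 and 3. Within set 1, the titles of the untreated and day 10 hCG arrays carry the word reanalysis. Those of trilostane at day 10 do not, and the fit had no term for this. Levels below are log2 intensities, centred on each array's median and adjusted to the scale of set 1.

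Some arrays stood apart. Replicates 3 and 5 of hCG at day 15 carry the same sample number in the labels, and their difference had an SD of 0.201 over probe sets against a median of 0.476 over 528 array pairs, so they count as 1 sample in each mean and SD (n = 4). The limma fit holds them as 2 arrays, so SEs and p-values of contrasts with day 15 hCG rest on 5 arrays from 4 sample numbers. With replicate 5 left out, all 54 calls of pathway genes described below were kept and 5 more passed. Replicate 4 of trilostane at day 15 and replicate 4 of trilostane with R5020 at day 15 were as alike (SD 0.192), although they are labelled as different groups. The next closest pair had an SD of 0.318. Nothing in the labels says that the other samples came from separate animals, so the p-values reflect only how these samples scatter. In whole tissue, fewer cells of a type and less RNA per cell cannot be told apart.

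CYP11B1 encodes steroid 11-beta-hydroxylase, the mitochondrial enzyme that makes cortisol from 11-deoxycortisol and is best known from the adrenal cortex. HSD11B1 encodes 11-beta-hydroxysteroid dehydrogenase type 1, which regenerates cortisol from inactive cortisone inside cells and draws on NADPH made by the enzyme of H6PD. HSD11B2 encodes the enzyme of the opposite direction, cortisol to cortisone. In the ovary, HSD11B1 is known to increase in granulosa cells as they luteinize around ovulation. Cortisol acts through the glucocorticoid receptor NR3C1, which switches on genes such as FKBP5, TSC22D3 and PER1.

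The pair was chosen by measured values in these arrays: CYP11B1 for its higher level with hCG than in untreated tissue at day 10, and HSD11B1 for its lower level with hCG at day 15 than at day 10. These contrasts and their sum (hCG at day 15 against untreated) are therefore described with no test. The remaining comparisons were tested with limma over all 28911 probe sets with array set as a term, and p-values were Benjamini-Hochberg adjusted within each comparison. A probe set passed at an adjusted p under 0.05. Tested comparisons that include untreated tissue or hCG alone share arrays with the choice, so they are not independent of it.

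CYP11B1 had its lowest mean in untreated tissue, and the mean was higher in all 6 treated groups. By MmugDNA.1790.1.S1_at the untreated arrays ranged from 6.03 to 8.75 around a median of 7.84. The 4 arrays of hCG at day 10 read 10.08, 10.02, 9.66 and 8.94. All 4 lay above the highest untreated array. Means were 7.61 ± 0.887 (SD, n = 8) untreated and 9.67 ± 0.525 (SD, n = 4) with hCG, a difference of 2.06 ± 0.60 (SE) or 4.17-fold. In this contrast 4.74% of all probe sets passed, 3.52% of them upward, and in 4.24% the hCG group lay wholly above the untreated one.

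With trilostane added for the same day, CYP11B1 was at its highest. The levels were 9.81, 10.28, 11.87 and 9.75, with replicate 3 the highest CYP11B1 reading of all arrays. The mean was 10.43 ± 0.992 (SD, n = 4), and the groups did not overlap. CYP11B1 rose by 2.82 ± 0.60 (SE) over untreated tissue, or 7.05-fold, with an adjusted p of 0.00701 in the limma fit. In that comparison 2.83% of probe sets passed, 1.26% of them upward, and 1.69% had a trilostane group wholly above the untreated one. The untreated arrays are shared with the contrast that chose CYP11B1, so this comparison is not independent of the choice. The trilostane titles also lack the word reanalysis that the untreated titles of set 1 carry.

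With trilostane and R5020 at day 10, CYP11B1 read 9.88, 9.39, 9.14 and 10.50, all 4 above every untreated array, as in 1.44% of all probe sets. The difference of 2.11 ± 0.60 (SE) was as large as with hCG alone but did not pass (limma adjusted p = 0.0798), in a comparison where 1.23% of probe sets passed. It passed in 1 of 10 alternative fits, without array set as a term (2.28, limma adjusted p = 0.014). Of 33 fits that left out 1 array, 1 passed, without replicate 2 of trilostane with R5020 at day 15 (2.06, limma adjusted p = 0.0383). The other 32 did not pass.

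At day 15 the mean CYP11B1 level of each group was above the untreated mean, and 1 array, with trilostane and R5020, was below it. With hCG alone the levels were 10.41, 9.34, 8.46, 9.84 and 8.65, of which 8.46 and 8.65 belong to the replicates that count as 1 sample. Only these fell below the highest untreated array. The mean was 9.54 ± 0.787 (SD, n = 4) and the fitted difference from untreated tissue, over all 5 arrays, was 1.73 ± 0.55 (SE). In this contrast 5.66% of probe sets passed.

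With trilostane at day 15 the CYP11B1 levels were 10.19, 8.87, 8.95 and 9.78, again wholly above the untreated group. The difference of 1.84 ± 0.60 (SE) missed the threshold narrowly (limma adjusted p = 0.0518). In this comparison 8.82% of probe sets passed and 3.97% lay wholly above the untreated group. It crossed the threshold when array set was not modelled (1.89, adjusted p = 0.0179) and when any of 5 arrays was left out: untreated replicate 4 (1.90, adjusted p = 0.0412), trilostane day 10 replicate 3 (1.84, 0.0408), hCG day 15 replicate 5 (1.87, 0.0479), or replicate 2 (1.87, 0.0184) or 4 (1.88, 0.0497) of trilostane with R5020 at day 15. The other 28 of 33 fits that left out 1 array did not pass. The within-set value in set 2 was 1.50 ± 0.61 (SE, limma adjusted p = 0.183).

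The day 15 group with trilostane and R5020 was the most scattered for CYP11B1. Its levels were 9.90, 6.88, 9.78 and 9.59, with replicate 2 below the untreated mean. The group mean was 9.04 ± 1.45 (SD, n = 4), and the difference from untreated tissue of 1.43 ± 0.60 (SE) did not pass (limma adjusted p = 0.198), where 4.18% of probe sets did. Without replicate 2 it was 2.22 and passed (limma adjusted p = 0.027). The other 32 of 33 fits that left out 1 array did not pass.

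The second CYP11B1 probe set gave the same order of the 7 group means at a lower and narrower range of values. MmugDNA.25500.1.S1_at averaged 6.23 ± 0.416 (SD, n = 8) in untreated tissue, where 4 of 8 arrays exceeded the table's median. It averaged 7.22 ± 0.697 with hCG at day 10, 8.02 ± 1.15 with trilostane and 7.39 ± 0.339 with trilostane and R5020 (SD, n = 4 each). At day 15 the means were 7.13 ± 0.463, 7.09 ± 0.497 and 6.87 ± 0.749 in the same order of treatment. These values place the untreated group lowest and trilostane at day 10 highest, as with the other probe set. The arrays that stood out were also the same: trilostane day 10 replicate 3 read 9.62, and replicate 2 of trilostane with R5020 at day 15 read 5.80.

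By this probe set CYP11B1 with hCG at day 10 differed from untreated tissue by 0.99 ± 0.42 (SE), with replicate 4 at 6.21, inside the untreated range of 5.48 to 6.76. With trilostane at day 10 it rose by 1.79 ± 0.42 (SE), or 3.45-fold, with no overlap (limma adjusted p = 0.0168). That call rests on few arrays: it was lost without trilostane day 10 replicate 3 (1.26, adjusted p = 0.0938), without untreated replicate 2 (1.57, adjusted p = 0.0632), and within array set 1 (1.85, adjusted p = 0.0687). Its differences from untreated tissue were 1.15 ± 0.42 with R5020 at day 10, 0.85 ± 0.42 with trilostane at day 15 and 0.64 ± 0.42 with R5020 at day 15 (SE; limma adjusted p of 0.22, 0.23 and 0.477).

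Across the 33 arrays the CYP11B1 probe sets had a Pearson r of 0.921 and a Spearman rho of 0.959, and r was 0.932 without the 2 arrays farthest from the median. After each group's mean was removed, r was 0.867. The points share arrays and target the same gene, so this describes the measurement and is not tested.

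**Figure D1:**
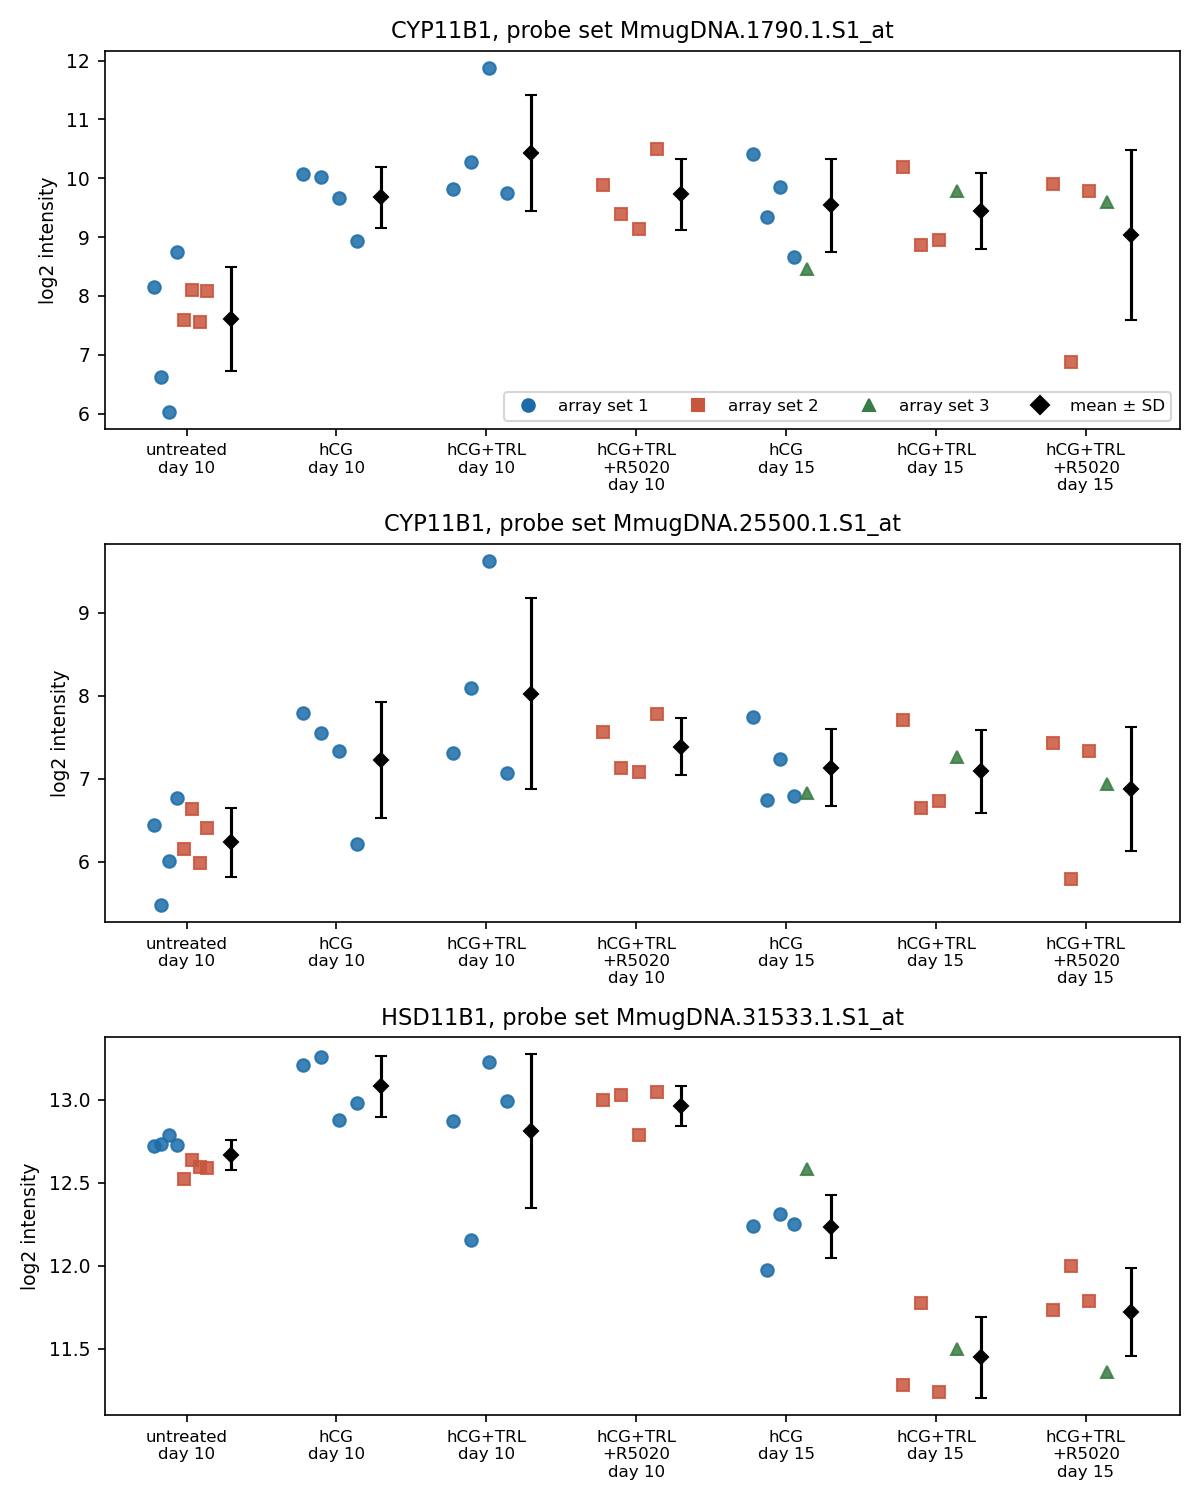
Log2 intensity of the 3 probe sets in each array (y axis), by group (x axis), adjusted to the scale of array set 1; marker shape and colour give the array set, and black diamonds with bars are the mean and SD over samples (n = 8 untreated, n = 4 otherwise, with day 15 hCG replicates 3 and 5 averaged). CYP11B1 is lowest in untreated tissue by both probe sets, and HSD11B1 is lowest in the day 15 trilostane groups, from 11.24 to 12.00.

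CYP11B2, which encodes aldosterone synthase, is a close relative of CYP11B1 and its next protein-coding neighbour in the RefSeq gene table of assembly T2T-MMU8v2.0. Probe sequences were not used here, so whether the CYP11B1 probe sets also detect CYP11B2 was not tested. The CYP11B2 values covered a narrower range. MmuSTS.1896.1.S1_at had group means from 6.89 (trilostane at day 15) to 7.21 (trilostane with R5020 at day 10), with 6.97 ± 0.096 (SD, n = 8) in untreated tissue. Its arrays of trilostane at day 10 (7.12 to 7.25) and of trilostane with R5020 at day 10 (7.12 to 7.34) lay wholly above the untreated ones (6.80 to 7.07), in comparisons where 1.69% and 1.44% of all probe sets did so. Neither CYP11B2 difference from untreated tissue passed, at 0.21 ± 0.077 (SE; limma adjusted p = 0.16) and 0.24 ± 0.077 (SE; limma adjusted p = 0.152). The other CYP11B2 probe set, MmugDNA.15333.1.S1_at, exceeded the table's median in 2 arrays and was not kept; its mean was lowest in untreated tissue (5.76) and 5.82 to 6.02 in the treated groups.

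No difference in CYP11B1 among the treated groups passed, but the intervals were wide. Trilostane against hCG alone at day 10 was 0.76 (95% interval -0.504 to 2.02) by MmugDNA.1790.1.S1_at and 0.80 (-0.0873 to 1.69) by MmugDNA.25500.1.S1_at, in a comparison where 1 of 28911 probe sets (0.00346%) passed. At day 15 the same contrast was 0.10 (-1.38 to 1.59) and 0.02 (-1.03 to 1.07). Adding R5020 to trilostane gave -0.70 (-2.39 to 0.983) and -0.63 (-1.82 to 0.554) at day 10, and -0.41 (-1.67 to 0.85) and -0.21 (-1.1 to 0.673) at day 15. These intervals include both no difference and several-fold differences. At day 10 the titles of hCG alone carry the word reanalysis and those of trilostane do not. No probe set of the whole table passed for R5020 (0%). An unadjusted limma p under 0.05 was found for 892 of 28911 at day 10 and 1010 at day 15. Both are less than the share of 0.05 expected without any difference.

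Nor did CYP11B1 differ detectably between the days. Day 15 minus day 10 was -0.33 ± 0.60 (SE) under hCG alone (described), -0.98 ± 0.81 under trilostane (limma adjusted p = 0.576) and -0.69 ± 0.63 under trilostane and R5020 (limma adjusted p = 0.668) by MmugDNA.1790.1.S1_at. MmugDNA.25500.1.S1_at gave -0.15 ± 0.42, -0.93 ± 0.57 (limma adjusted p = 0.416) and -0.51 ± 0.45 (limma adjusted p = 0.643).

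HSD11B1 followed another course in its group means: above untreated tissue after 1 day of hCG and below it after 6, lowest with trilostane. Neither trilostane group passed against untreated tissue at day 10, nor did trilostane against hCG alone at day 15. The untreated arrays lay close together, from 12.52 to 12.79 around a median of 12.68, with a mean of 12.67 ± 0.0912 (SD, n = 8). With hCG at day 10 HSD11B1 read 13.21, 13.26, 12.88 and 12.98, all above the untreated group, as in 4.24% of all probe sets. The difference was 0.42 ± 0.16 (SE), or 1.33-fold, larger than that of 93% of probe sets, and is described only.

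With trilostane at day 10, HSD11B1 spread more widely, at 12.87, 12.16, 13.23 and 12.99, and replicate 2 lay below every untreated array. The difference from untreated tissue was 0.15 ± 0.16 (SE; limma adjusted p = 0.751). With R5020 as well, the levels were 13.00, 13.03, 12.79 and 13.05 (difference 0.30 ± 0.16, limma adjusted p = 0.518). Neither difference passed.

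At day 15 with hCG alone, HSD11B1 read 12.24, 11.98, 12.58, 12.31 and 12.25, and each array was below the lowest of hCG at day 10. The highest, 12.58, is the array of set 3; its fellow from the same sample number, in set 1, read 12.25. The difference between the days was -0.81 ± 0.16 (SE), 1.75-fold lower, described with no test. In that contrast 6.71% of probe sets passed, 3.94% of them downward, and 4.97% had a day 15 group wholly below the day 10 group. Against untreated tissue the difference was -0.39 ± 0.15 (SE). The set 3 array lay within the untreated range after adjustment for array set, and below it in the deposited values.

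The day effect on HSD11B1 was also measured in the trilostane groups, whose arrays were not used in the choice. Under trilostane the day 15 levels were 11.28, 11.78, 11.24 and 11.50, below all 4 day 10 levels. HSD11B1 fell by 1.36 ± 0.22 (SE), or 2.57-fold, with a limma adjusted p of 0.000722. In this comparison 2.86% of probe sets passed, 1.44% of them downward, and 8.6% had a day 15 group wholly below the day 10 group. The day 10 arrays were in set 1 and the day 15 arrays in sets 2 and 3, so this contrast depends on the untreated arrays that link the sets. Without array set as a term it was -1.37 (adjusted p = 3.41e-06).

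Under trilostane and R5020 the day 15 levels of HSD11B1 were 11.73, 12.00, 11.79 and 11.36, again below all 4 at day 10. HSD11B1 fell by 1.25 ± 0.17 (SE), or 2.37-fold (limma adjusted p = 0.000168). Here 2.47% of probe sets passed, 1.36% of them downward, and 5.67% had a day 15 group wholly below the day 10 group. This contrast can be made within array set 2, where it was -1.13 ± 0.12 (SE; limma adjusted p = 0.00127). With both near-identical replicate 4 arrays left out, the falls were 1.22 under trilostane (adjusted p = 0.00583) and 1.13 under trilostane and R5020 (adjusted p = 0.000706). All 33 fits that left out 1 array kept both calls.

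Against untreated tissue HSD11B1 fell by 1.22 ± 0.16 (SE) with trilostane at day 15, 2.32-fold (limma adjusted p = 2.07e-05), and by 0.95 ± 0.16 with trilostane and R5020, 1.93-fold (limma adjusted p = 0.000745). Neither group overlapped the untreated one. In these comparisons 8.82% and 4.18% of probe sets passed, 4.66% and 2.25% of them downward, and 5.87% and 3.32% lay wholly below the untreated group. Within array set 2 the values were -1.16 (adjusted p = 0.000654) and -0.75 (adjusted p = 0.0134). The untreated arrays also entered the contrasts that chose the pair.

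At day 15 HSD11B1 was lower with trilostane than with hCG alone in every array, with 11.78 the highest trilostane level and 11.98 the lowest hCG level. The difference was -0.82 ± 0.20 (SE; 95% interval -1.23 to -0.422), or 1.77-fold. It did not pass the adjusted threshold (limma adjusted p = 0.178), in a comparison where 7 of 28911 probe sets (0.0242%) passed while 4.27% had a trilostane group wholly below the hCG group. The groups came from different array sets, apart from 1 array of each in set 3 (12.58 and 11.50). Without the near-identical replicate 4 arrays it was -0.61 (limma adjusted p = 0.497), and without array set as a term -0.79 (limma adjusted p = 0.062). The day 15 hCG arrays also entered the contrast that chose HSD11B1.

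At day 10 trilostane against hCG alone gave -0.27 (95% interval -0.611 to 0.0719, limma adjusted p = 0.524) for HSD11B1. Both groups were in array set 1, but only the hCG titles carry the word reanalysis. The day 10 hCG arrays also entered the choice of the pair. The trilostane effect at day 15 minus that at day 10 was -0.55 ± 0.26 (SE; limma adjusted p = 1), where 0% of probe sets passed. An unadjusted limma p under 0.05 was found for 1098 of 28911, less than the share of 0.05 expected without any difference. A difference between the days in the trilostane effect was thus not established.

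No difference in HSD11B1 between trilostane with and without R5020 passed. At day 15 trilostane with R5020 minus trilostane was 0.27 (95% interval -0.0698 to 0.613; limma adjusted p = 1), and within array set 2 it was 0.41. The groups overlapped, since replicate 4 with R5020, at 11.36, lay below trilostane replicate 4, at 11.50. Trilostane with R5020 minus hCG alone was -0.55 (-0.954 to -0.15; limma adjusted p = 1). With the near-identical arrays left out these became 0.41 and -0.20. At day 10 R5020 added 0.15 (-0.304 to 0.61).

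In order of their means, the HSD11B1 groups ran from hCG at day 10 (13.08 ± 0.183) through trilostane with R5020 (12.96 ± 0.121) and trilostane (12.81 ± 0.462) at day 10 and untreated (12.67 ± 0.0912) to hCG (12.24 ± 0.188), trilostane with R5020 (11.72 ± 0.266) and trilostane (11.45 ± 0.246) at day 15 (SD, n = 4, or 8 untreated). Every pair of neighbours in that order overlapped in at least 1 array. For CYP11B1 the order by MmugDNA.1790.1.S1_at was trilostane at day 10 (10.43), trilostane with R5020 at day 10 (9.73), hCG at day 10 (9.67), hCG at day 15 (9.54), trilostane at day 15 (9.45), trilostane with R5020 at day 15 (9.04) and untreated (7.61). The 6 treated groups overlapped one another.

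**Figure D2:**
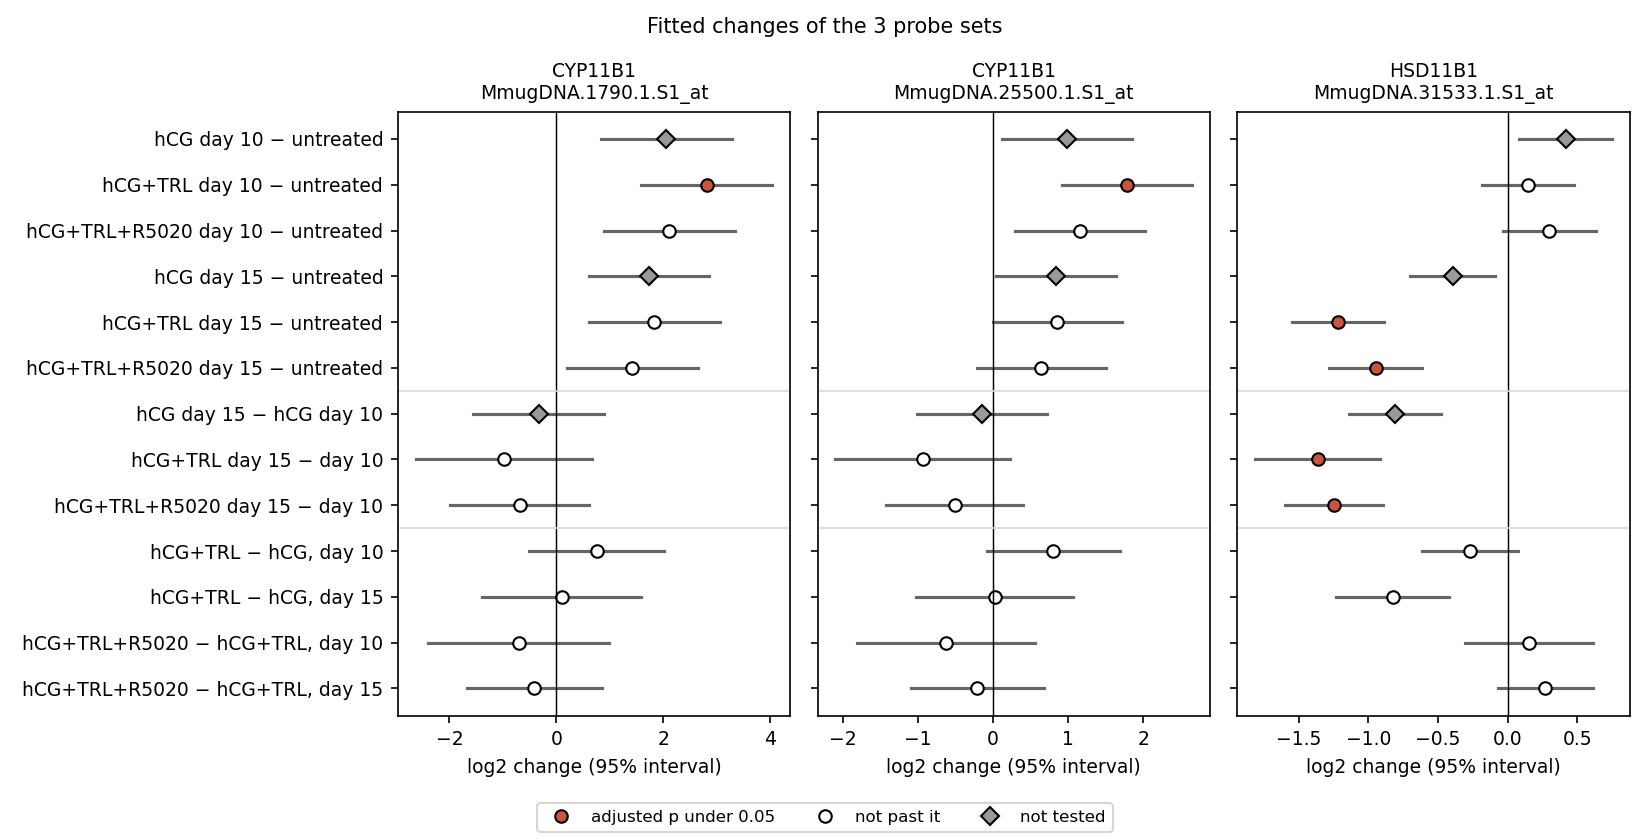
Fitted log2 difference (x axis) with its 95% interval for each comparison (rows) and probe set (panels; each has its own x scale); red circles passed an adjusted p of 0.05, open circles did not, and grey diamonds were not tested. CYP11B1 passed with trilostane at day 10 against untreated tissue by both probe sets (2.82 and 1.79), and HSD11B1 passed in the 4 comparisons that set a day 15 trilostane group against day 10 (-0.95 to -1.36).

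The members did not vary together. Over the 33 arrays CYP11B1 (MmugDNA.1790.1.S1_at) and HSD11B1 had a Pearson r of 0.00598 and a Spearman rho of 0.131, and r was 0.107 without the 2 arrays farthest from the median. Within groups r was -0.0986. Replicate 2 of trilostane with R5020 at day 15, with the lowest CYP11B1 level of its group, had that group's highest HSD11B1 level, 12.00.

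**Figure D3:**
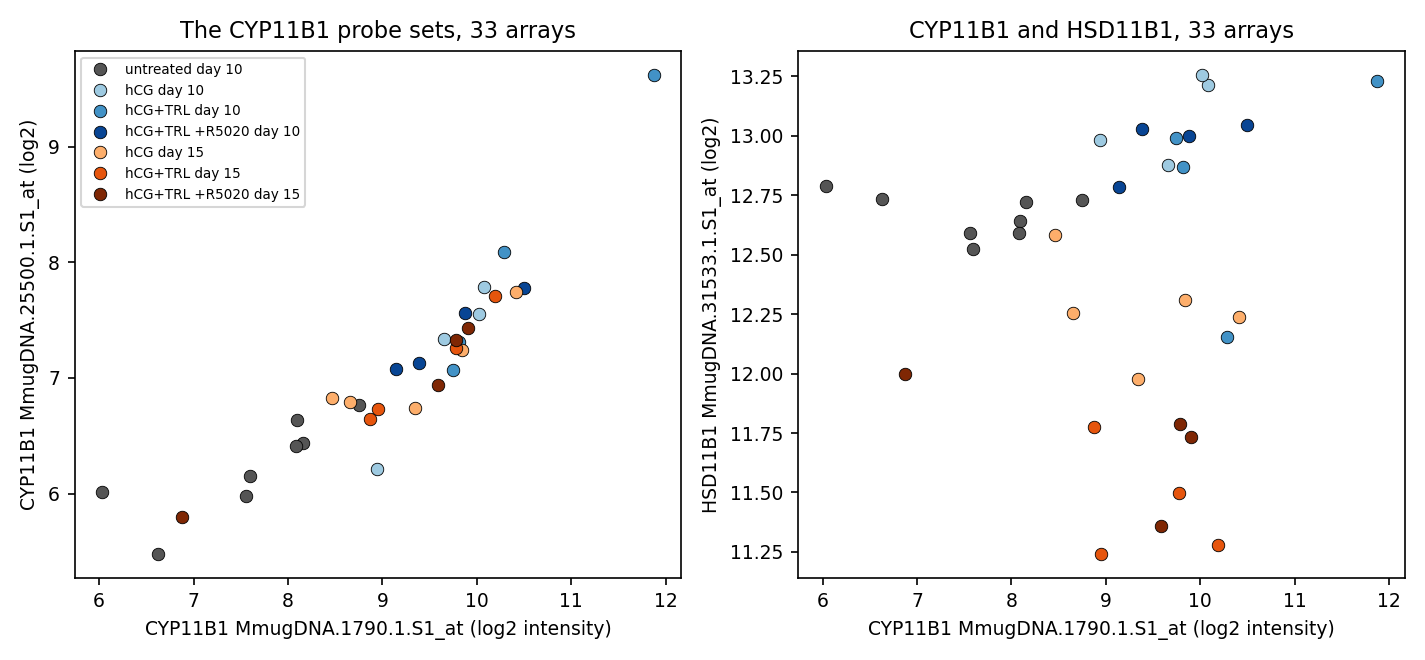
Log2 intensity in the 33 arrays of the CYP11B1 probe sets against each other (left) and of HSD11B1 against CYP11B1 (right), each point an array coloured by group. The CYP11B1 probe sets lie along a line (r = 0.921), with trilostane day 10 replicate 3 at the top right. HSD11B1 is mostly higher at day 10 than at day 15 without following CYP11B1 (r = 0.00598). The days overlap: trilostane day 10 replicate 2, at 12.16, lies within the range of day 15 hCG (11.98 to 12.58).

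Of the enzymes before CYP11B1 in cortisol synthesis, CYP21A2, the 21-hydroxylase that makes the substrate of CYP11B1, passed in no comparison of groups. Its group means were 6.39 to 6.55, just above the table's median. CYP17A1, the 17-alpha-hydroxylase, had 8.68 ± 0.428 (SD, n = 8) untreated and 10.06 ± 0.56 (SD, n = 4) with hCG at day 10, a rise of 1.37 ± 0.39 (SE; limma adjusted p = 0.0396). It was also higher at day 15 with hCG alone (1.90 ± 0.36, adjusted p = 0.00135) and with trilostane (1.72 ± 0.39, adjusted p = 0.00572). POR, the reductase that passes electrons to CYP17A1 and CYP21A2, rose by 0.63 ± 0.16 with hCG at day 10 (adjusted p = 0.0175) and by 0.79 ± 0.14 at day 15 (adjusted p = 0.000941). STAR, which delivers cholesterol to the mitochondrion, rose by 0.30 ± 0.048 with hCG at day 15 (adjusted p = 0.000247).

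HSD3B2, the 3-beta-hydroxysteroid dehydrogenase that trilostane inhibits, had a course like that of HSD11B1. Its mean was 13.28 ± 0.299 (SD, n = 8) untreated and 13.78 ± 0.18 with hCG at day 10, and 12.30 ± 0.415, 10.79 ± 0.582 and 11.25 ± 0.748 at day 15 with hCG, trilostane, and trilostane with R5020 (SD, n = 4). HSD3B2 fell between the days, with changes of -1.38 ± 0.28 under hCG (limma adjusted p = 0.00298), -2.92 ± 0.38 under trilostane (adjusted p = 5.56e-05) and -2.11 ± 0.30 with R5020 (adjusted p = 0.000264). FDXR, which supplies electrons to the mitochondrial enzymes including CYP11B1, fell by 0.70 ± 0.17 between the days under hCG (adjusted p = 0.0112).

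As a list, 9 of 11 other genes of glucocorticoid synthesis had a kept probe set. With hCG at day 10 against untreated tissue 3 rose (CYP17A1, POR and CYB5A) and 0 fell, with a median change of 0.34, beside 4.22% rising and 1.18% falling and a median of 0.058 among 10507 genes. With trilostane at day 15 against untreated tissue 2 rose (CYP17A1 and POR) and 2 fell (HSD3B2 and FDXR), with a median of -0.0062, beside 4.49% and 5.95% of all genes. With trilostane at day 10, where CYP11B1 passed, 0 of the 9 passed in the limma fit, where 1.3% of all genes rose and 1.88% fell. At an unadjusted limma p under 0.05 there were 5 of the 9, beside 4278 of the 28911 probe sets.

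For HSD11B1 the partner genes could not be followed: HSD11B2 and H6PD had no kept probe set with a single symbol and are not analysed here. Of 14 genes of glucocorticoid conversion and clearance 6 were kept, among them SLC37A4, the transporter that feeds H6PD. None of the 6 passed in any comparison of groups in the limma fit, beside 0% to 4.54% of all genes rising and 0% to 5.95% falling. At an unadjusted limma p under 0.05 there were 0 to 2 of the 6 per comparison, beside 892 to 6402 of the 28911 probe sets. HSD11B1L, a related gene of its own, had group means from 8.06 to 8.47.

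The glucocorticoid receptor NR3C1 had group means from 9.46 to 9.69 and passed in no comparison. Of 10 kept genes in the list of reception (14 listed), STIP1 (-0.69 ± 0.13, adjusted p = 0.00122) and HSP90AB1 (-0.37 ± 0.11, adjusted p = 0.0415), chaperones that mature the receptor, fell and the coactivator gene NCOA2 rose (0.40 ± 0.12, adjusted p = 0.0324) between day 10 and day 15 of hCG. Over all genes 2.97% rose and 4.82% fell there. SERPINA6, the cortisol-binding globulin of blood, fell with trilostane at day 15 against untreated tissue (-0.95 ± 0.25, adjusted p = 0.0142).

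Target genes of the receptor passed in both directions. FKBP5, a receptor co-chaperone also induced by progestins, fell by 1.50 ± 0.32 between day 10 and day 15 of hCG (limma adjusted p = 0.00391). TSC22D3, the anti-inflammatory leucine zipper protein GILZ, rose by 0.69 ± 0.17 with hCG at day 10 (adjusted p = 0.0144) and by 0.58 ± 0.15 at day 15 (adjusted p = 0.0186), both against untreated tissue. PER1, a clock gene, passed in no comparison, at 0.56 ± 0.20 with hCG at day 10 (adjusted p = 0.116). With trilostane at day 15 against untreated tissue, where HSD11B1 fell, 0 of the 15 kept targets (19 listed) rose and 2 fell: DUSP1, a MAP kinase phosphatase (-0.97 ± 0.17, adjusted p = 0.00044), and ZBTB16 (-1.18 ± 0.31, adjusted p = 0.015). Over all genes 4.49% rose and 5.95% fell there. Several of these genes also answer to progesterone, so the list is not specific to cortisol.

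Between day 10 and day 15 under trilostane and R5020, where HSD11B1 fell, 2 of the 15 targets rose and 1 fell. SGK1, a kinase that controls ion transport, rose by 0.88 ± 0.17 (limma adjusted p = 0.00568), GLUL, glutamine synthetase, rose by 0.79 ± 0.16 (adjusted p = 0.00568), and MT2A, a metallothionein, fell by 1.40 ± 0.30 (adjusted p = 0.00959). Among all genes 1.29% rose and 1.75% fell. Under trilostane alone 0 rose and 1 fell (DUSP1, -0.94 ± 0.23, adjusted p = 0.0193), where 1.62% of all genes rose and 1.72% fell.

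CEBPA, a transcription factor known to drive HSD11B1 in other tissues, rose above untreated tissue in all 6 treated groups. Its mean was 8.94 ± 0.611 (SD, n = 8) untreated, and it rose by 1.68 ± 0.31 with hCG at day 10 (limma adjusted p = 0.00166) and by 2.00 ± 0.28 at day 15 (adjusted p = 7.32e-05). It did not pass between the days under hCG (0.32 ± 0.31, adjusted p = 0.605), where HSD11B1 was lower. CEBPB, its relative, missed the threshold with hCG at day 10 (0.55 ± 0.16, adjusted p = 0.0507) and day 15 (0.49 ± 0.15, adjusted p = 0.0517). CEBPA was the 1 of 6 kept genes of this list (10 listed) that passed with hCG against untreated tissue at day 10 and at day 15, where 4.22% and 4.54% of all genes rose.

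Of 10 kept regulators of CYP11B1 (12 listed), none rose in any comparison of groups. Over all genes 0% to 4.54% rose per comparison, so the upward count is near that background. From 0 to 2 of the 10 fell per comparison, beside 0% to 5.95% of all genes. The count was 2 with trilostane at day 15 against untreated tissue, where 5.95% of all genes fell. It was also 2 between the days under trilostane and R5020, where 1.75% fell, and 0 or 1 in the other comparisons. With day 15 hCG replicate 5 left out, CREM, a cAMP-responsive transcription factor, passed between the days under hCG (0.50, adjusted p = 0.0188; 0.41 and 0.0562 with all arrays). NR4A1, an orphan receptor induced by trophic hormones, fell by 0.86 ± 0.25 with hCG at day 10 (limma adjusted p = 0.0433), where CYP11B1 was higher, and by 1.25 ± 0.25 with trilostane at day 15 (adjusted p = 0.00178). NR5A1, the steroidogenic factor SF-1, had group means from 7.28 to 7.67 and passed only between the days under trilostane and R5020 (-0.36 ± 0.095, adjusted p = 0.0415), and without day 15 hCG replicate 5 also between the days under hCG (-0.33, adjusted p = 0.0322). NR5A2, its relative LRH-1, fell by 0.68 ± 0.13 with hCG at day 15 against untreated tissue (adjusted p = 0.00145) and by 0.67 ± 0.14 with trilostane (adjusted p = 0.00279).

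Among 9824 genes, those whose levels most resembled CYP11B1 (MmugDNA.1790.1.S1_at) over the 33 arrays were OGN (Pearson r 0.743, Spearman rho 0.724, r without the 2 farthest arrays 0.643), PRR15 (0.707, 0.672, 0.631), ACSL1 (0.682, 0.616, 0.625), ZFYVE9 (0.671, 0.694, 0.661) and USP53 (0.654, 0.6, 0.61). With group means removed, r stayed at 0.611 for OGN and 0.604 for PRR15 and was 0.267, 0.142 and -0.192 for ACSL1, ZFYVE9 and USP53. For OGN and PRR15 the likeness thus includes the differences among arrays of a group.

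The genes most like HSD11B1 were LMF2 (Pearson r 0.912, Spearman rho 0.868, r without the 2 farthest arrays 0.884), APPL2 (0.912, 0.776, 0.881), HMGB3 (0.894, 0.858, 0.876), HSD3B2 (0.891, 0.884, 0.887) and HAL (0.888, 0.906, 0.871). Within groups r was 0.774 for LMF2, 0.518 for APPL2, 0.341 for HMGB3, 0.195 for HSD3B2 and 0.536 for HAL. Most of the likeness to HSD3B2 therefore lay between groups. The arrays share groups, days and array sets, and these correlations are a description.

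**Figure D4:**
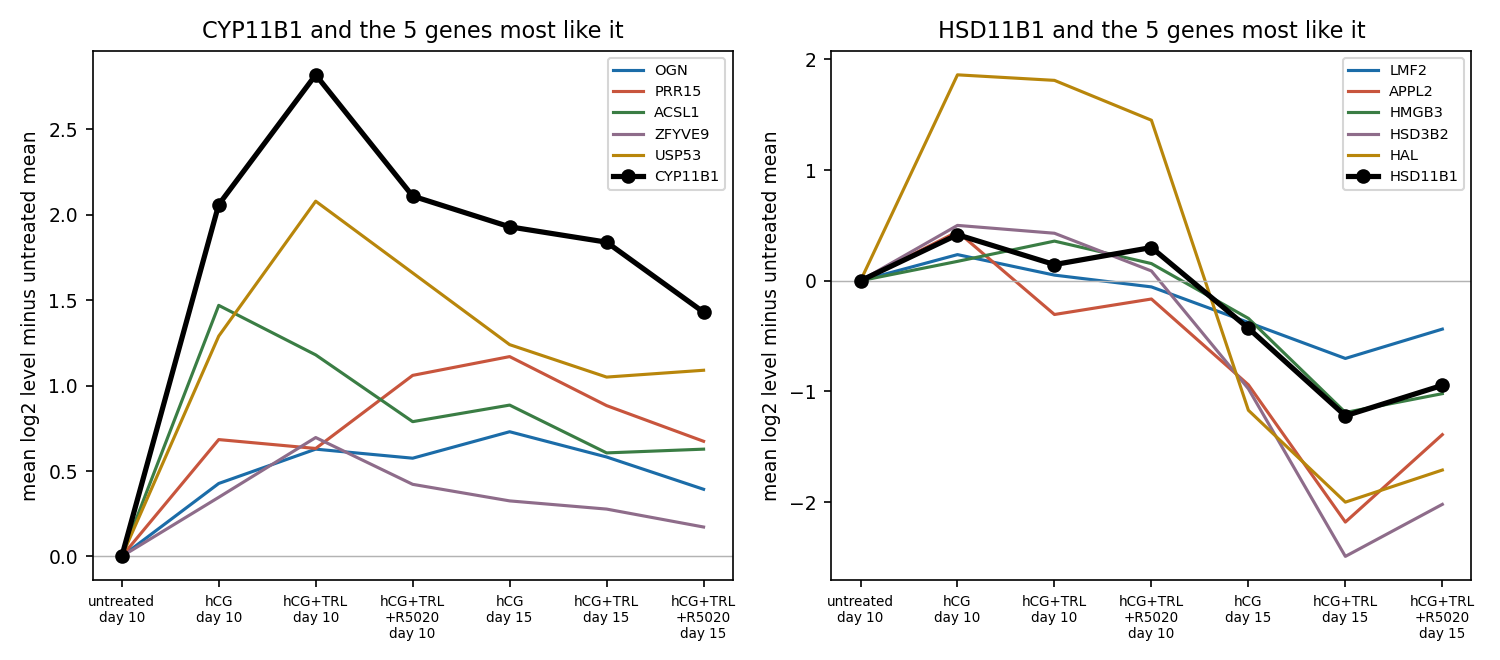
Mean log2 level of each group minus the untreated mean (y axis) across the 7 groups (x axis) for CYP11B1 (left) and HSD11B1 (right), in black, and the 5 genes most like each. CYP11B1 peaks with trilostane at day 10 (2.82 above untreated), and HSD11B1 and its 5 companions are all below untreated tissue in the 3 day 15 groups.

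Marker levels moved with some of these results, and their part in them was not tested. Only the macrophage, luteal steroidogenic and adrenal cortex lists are given in full. For HSD11B1, the mean over 8 of 10 macrophage markers was 9.65 in untreated tissue (range 8.76 to 10.46) and 9.58 to 9.62 in the day 10 treated groups. At day 15 it was 10.1 with hCG (9.64 to 10.85). It was 10.59 with trilostane (9.84 to 11.01) and 10.1 with trilostane and R5020 (9.88 to 10.25). Ranges of the marker lists are over arrays, whereas the SD over samples with hCG at day 15 was 0.112 here (n = 4). With that SD, 9.64 and 10.85 can only be the day 15 hCG replicates that share a sample number. That hCG range is therefore not the spread among samples. Of these replicates 1 is in array set 3, which holds 1 array of each day 15 group. The means and ranges of the other day 15 groups thus also include an array adjusted for set 3. The mean over 6 of 11 luteal steroidogenic markers was 13.1 untreated (12.64 to 13.36) and 13.0, 12.7 and 12.85 in the day 15 groups (12.73 to 13.15, 12.63 to 12.73 and 12.72 to 13.11). Of the 6 luteal markers, HSD3B2 and NR5A2 fell against untreated tissue in all 3 day 15 groups, and between the days under hCG and under trilostane with R5020. HSD3B2 alone fell between the days under trilostane. STAR rose against untreated tissue at day 15 with hCG and with trilostane and R5020 (0.21 ± 0.052, limma adjusted p = 0.0177). Of the 8 macrophage markers, 4 rose with trilostane at day 15 against untreated tissue (CD68, AIF1, TYROBP and C1QB) and 0 in the other day 15 groups. Their mean change was 0.93 with trilostane, 0.48 with hCG and 0.45 with trilostane and R5020. Of all genes, 4.49%, 4.54% and 2.18% rose in these comparisons, and 5.95%, 2.24% and 2.71% fell. Between the days 4.82% of all genes fell under hCG, 1.72% under trilostane and 1.75% under trilostane with R5020. There 0 of the 8 macrophage markers passed under any of these treatments. At day 15 against untreated tissue the neutrophil and mast cell list (3 of 6 kept) also moved. Its mean change was 0.45 with hCG, 0.51 with trilostane and 0.67 with trilostane and R5020, and 0 of the 3 passed. The lists not shown ranged there from -0.41 (ovarian surface epithelium, trilostane) to 0.5 (red cell, trilostane with R5020).

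For CYP11B1, 5 of 7 adrenal cortex markers were kept, and MC2R, the corticotropin receptor, and SULT2A1 had no kept probe set with a single symbol. The list's mean was 9.66 untreated (9.46 to 9.85), 10.09 with hCG at day 10 (10.01 to 10.2), 9.95 with trilostane (9.69 to 10.27) and 9.99 with trilostane and R5020 (9.81 to 10.17) at day 10, and 10.02 (9.88 to 10.09), 9.62 (9.46 to 9.75) and 9.78 (9.7 to 9.85) at day 15. Of the 5, MRAP, an accessory protein of the corticotropin receptor, rose against untreated tissue by 0.81 ± 0.17 with hCG, 0.69 ± 0.17 with trilostane and 0.93 ± 0.17 with trilostane and R5020 at day 10, and by 1.03 ± 0.16 with hCG at day 15 (SE; limma adjusted p of 0.00496, 0.022, 0.00415 and 0.000134). CYB5A, cytochrome b5, rose with hCG at day 10 (0.56 ± 0.16, limma adjusted p = 0.0351). DLK1, CYP21A2 and CYP11B2 passed in no comparison of groups. Of all genes, 4.22% rose with hCG, 1.3% with trilostane and 0.504% with trilostane and R5020 at day 10, and 4.54% with hCG at day 15.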

How the data were processed

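The 33 arrays (Affymetrix Rhesus Genome) cover 7 groups of corpus luteum samples. The deposited values are log2 intensities per probe set, read as such from their range (2.60 to 15.12) and like array medians; how the authors corrected background, summarized and normalized them is not given in the sources used here. The number of arrays limits the precision. Of 52865 probe sets, 99 controls were left out, and probe sets above 6.19 in at least 4 arrays were kept (28911). Array medians differed by 0.183, so arrays were centred on their medians.

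A single limma fit (limma 3.58.1, R 4.3.3, lmFit and eBayes with trend, 24 residual degrees of freedom, tested on simulated data) held group and array set as terms, and tests were two-sided. Probe sets were named through the platform annotation and the supplied gene tables. The kept probe set with the highest mean stands for a gene. No sequence was used, and gene order in the RefSeq table (assembly T2T-MMU8v2.0) only to name the neighbour of CYP11B1.

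The members, gene lists and tests were chosen with earlier results of these data known. The rule for named genes was: all member probe sets; 15 set genes of the pathway (HSD11B2 and H6PD were not kept); up to 3 further passing genes per list, direction and comparison by adjusted p, of which examples are given; and the 5 genes with the highest Pearson r to each member. HSD11B1L, SLC37A4, CREM and the marker genes were named outside it. Alternatives covered the centring, filter, array set, trend, replicate block, near-identical arrays and each array left out. Pathway genes without day 15 hCG replicate 5 were added after seeing the data.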

Additional observations from a re-analysis of the deposited data

Results flagged for a closer look

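In 21 combinations of probe set and group, 2 arrays lay far from the rest of their group by Dixon's criterion, which chance meets in about 1 of 20. CYP11B1 by MmugDNA.1790.1.S1_at in replicate 2 of trilostane with R5020 at day 15 was at 6.88 with the next array at 9.59, a gap of 0.896 of the group's range against a critical value of 0.829. HSD11B1 in replicate 3 of trilostane with R5020 at day 10 was at 12.79 with the next array at 13.00, a gap of 0.8291 of a narrow range, barely past the same critical value.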

How the results depend on the processing

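Of the tested results, the HSD11B1 falls at day 15 kept their direction and call under every alternative run except the replicate block (where the fall with R5020 between the days alone was still called), and the CYP11B1 rise with trilostane at day 10 by MmugDNA.1790.1.S1_at kept both in all of them. Without array set as a term, MmugDNA.1790.1.S1_at passed against untreated tissue with R5020 at day 10 (2.28) and with trilostane at day 15 (1.89), its R5020 effect at day 15 minus day 10 became -0.033, and MmugDNA.25500.1.S1_at for trilostane minus hCG at day 15 became -0.031. The pathway genes called against untreated tissue went from 2 to 7 with trilostane at day 10 and from 2 to 7 with R5020 at day 10, and from 2 to 12 between the days under trilostane. Within array set 1, the CYP11B1 rise by MmugDNA.25500.1.S1_at (1.85) no longer passed. With hCG day 15 replicate 5 left out, trilostane at day 15 against untreated passed for MmugDNA.1790.1.S1_at (1.87), and trilostane minus hCG at day 15 became -0.034 and -0.036 by the CYP11B1 probe sets. With the near-identical replicate 4 arrays left out it was -0.67 and -0.22, R5020 at day 10 minus hCG was -0.39 for MmugDNA.1790.1.S1_at and 0.040 for HSD11B1. The cause of these shifts was not tested, and the sign changes are all of differences that did not pass.

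Replicate numbers showed little pairing of the samples. Same-numbered arrays of different groups had a median correlation of deviations of 0.023 (21 of 84 pairs above 0.1) against 0.0021 for other pairs (53 of 252). Numbers in the sample titles differ from the replicate numbers in places, and a pairing by title was not tested. By construction, a replicate block leaves untreated replicates 6 to 9 without a partner, so sets 1 and 2 are no longer linked through untreated tissue. In that fit HSD11B1 no longer passed against untreated tissue with trilostane (-1.96) or R5020 (-1.69) at day 15 or between the days under trilostane (-2.03), and it was -0.52 for R5020 at day 10 against untreated and -0.59 against trilostane. MmugDNA.1790.1.S1_at and MmugDNA.25500.1.S1_at then gave 1.09 and 0.57 for R5020 minus trilostane at day 10, 0.87 and 0.64 for R5020 minus hCG at day 15, 0.71 and 0.16 between the days under trilostane, 0.52 and 0.053 for the trilostane effect at day 15 minus day 10, and -1.50 and -0.78 for the R5020 effect likewise.

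With each array left out in turn, MmugDNA.1790.1.S1_at against untreated tissue ranged from 1.47 to 2.05 with trilostane at day 15, 1.86 to 2.31 with R5020 at day 10 and 1.06 to 2.22 with R5020 at day 15, and MmugDNA.25500.1.S1_at with trilostane at day 10 from 1.26 to 2.11. Differences that passed in no such fit and changed sign ranged, for MmugDNA.1790.1.S1_at and MmugDNA.25500.1.S1_at, from -0.70 to 0.42 and -0.20 to 0.17 (trilostane minus hCG, day 15), -0.39 to 0.46 and -0.17 to 0.36 (R5020 minus hCG, day 10), -1.12 to 0.38 and -0.42 to 0.15 (R5020 minus hCG, day 15), -0.71 to 0.34 and -0.41 to 0.16 (R5020 minus trilostane, day 15), -0.19 to 1.15 and -0.11 to 0.85 (R5020 effect between the days), -0.72 to 0.43 and -0.57 to 0.032 (day effect with R5020 minus with hCG), and for MmugDNA.1790.1.S1_at -1.03 to 0.15 (between the days with R5020). HSD11B1 ranged from -0.18 to 0.040 (R5020 minus hCG, day 10), -0.065 to 0.31 (R5020 minus trilostane, day 10) and -0.038 to 0.34 (R5020 effect between the days).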
